A study of Mus with 2 samples.

Results

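The Slc22 family holds transporters of organic anions and organic cations, and 8 of its genes were followed here through the kidney clusters of a young and a senescent library. They were Slc22a2, Slc22a6, Slc22a7, Slc22a8, Slc22a12, Slc22a18, Slc22a29 and Slc22a30, taken by gene name from the 8191 distinct genes of the authors' deposited table. Together they filled 37 of its 20111 entries, an entry being 1 gene in 1 cluster. The senescent mean was lower in 35 of these entries and higher in 2, Slc22a8 and Slc22a29 in the proximal tubule cluster. In the other clusters with members, between 41.7% and 71.8% of all listed genes had the lower senescent mean. Of all genes listed in the proximal tubule cluster, 78.3% were higher at an adjusted p of at most 0.05 in the authors' deposited table. Entries of 1 gene in different clusters come from the same libraries, so they are not independent repeats.

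Cells from whole kidneys of C57BL/6 mice were sequenced as single cells in droplets, in 1 library labelled young and 1 labelled senescent. The labels give no treatment or allele for either group. The ages, sex and number of mice behind each library, and the number of cells in each cluster, are not given in the sources used here. For cells, the series states 10895 from the young and 4408 from the senescent mice. A single library per group leaves no spread between mice, so every mean below stands without an SD and no test between groups was run.

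In the proximal tubule, SLC22 proteins of the basolateral membrane take up drugs, toxins and metabolic waste from the blood. The organic anion transporters OAT1 and OAT3 do so in exchange for a dicarboxylate, and the organic cation transporter OCT2 is driven by the membrane potential. Other carriers and pumps in the apical membrane then pass these solutes into the urine. URAT1, an apical member of the family, works in the other direction and reabsorbs urate.

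The table gives each gene's mean signal per cell in a cluster, on a scale that the authors do not state, for 7 clusters labelled by the authors: PT, LOH, endo, Marco, T, B, Neutro. Pairs of means below give the young library first and the senescent second. Only entries with a p-value under 0.05 and an absolute log2 fold change from 0.36 upward are listed, so a gene missing from a cluster cannot be called unchanged. A gene is counted as called here when the authors' deposited table gives an adjusted p no higher than 0.05 and a log2 fold change of 1 or more in size. Those p-values measure spread between cells, not between mice. Which column is senescent rests on the sample descriptions, since the contrast in the table is named for C57 and WT with a number appended. The sources used here do not say what these stand for.

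The cluster labels were checked against fixed markers. All 8 macrophage markers were listed in Marco, all 6 T cell markers in T and all 5 B cell markers in B, each with the higher mean in the senescent library. Umod, the only 1 of the 5 thick ascending limb markers listed in LOH, stood at 47.6 and 148 there. The distal convoluted tubule markers Slc12a3, at 9.05 and 15.5, and Pvalb, at 2.11 and 0.971, were also listed in LOH. The check of the LOH label thus rests on Umod alone. Listing means that a gene differed between the libraries, and of the 20 proximal tubule markers 17 were listed in PT but 20 in T, so their number does not check the PT label. By level, the proximal tubule markers listed in both PT and another cluster had medians from 7.59% to 14.0% of the PT mean in Marco, T, B and LOH in the senescent library, but from 56.6% to 96.9% in the young library. The 8 endothelial markers were all missing from endo, so that label could not be checked. No Slc22 member was listed in Neutro.

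In PT, the uptake transporters of the basolateral membrane went in different directions. Slc22a6 (ENSMUSG00000024650), which encodes OAT1, had a young mean of 5.26 and a senescent mean of 3.53, 1.49-fold lower. Slc22a8 (ENSMUSG00000063796), which encodes OAT3, had means of 0.780 and 2.999, 3.85-fold higher. These genes encode the main pair of basolateral anion exchangers, and their differences between the libraries had opposite signs. Slc22a2 (ENSMUSG00000040966), which encodes OCT2, had means of 1.59 and 1.08 in PT, 1.48-fold lower. The difference in Slc22a2 was thus close in size to that in Slc22a6.

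The PT member with the widest gap between the libraries was Slc22a7 (ENSMUSG00000067144), which encodes the organic anion transporter OAT2. Its means were 1.43 and 0.0126, a 113-fold difference. The senescent value lay above the smallest senescent mean listed in PT, 0.00239, but low enough that the size of the ratio is uncertain. Slc22a18 (ENSMUSG00000000154), which encodes an organic cation transporter-like protein and lies in an imprinted region, had means of 3.68 and 1.55, 2.37-fold lower. Slc22a29 (ENSMUSG00000075044), a member of the rodent organic anion transporter gene cluster, had means of 0.0247 and 0.412, 16.7-fold higher. Slc22a29 was listed in PT and in no other cluster.

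Slc22a12 (ENSMUSG00000061742), which encodes URAT1, and Slc22a30 (ENSMUSG00000052562), of the same gene cluster as Slc22a29, were not listed in PT, although each was listed in 4 other clusters. A change in PT can therefore be neither given nor denied for the urate transporter.

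In the authors' deposited table, the adjusted p was passed by all 6 members listed in PT, 4 of them lower and 2 higher. Of all 5037 genes listed in PT, 21.6% passed it as lower and 78.3% as higher. With the fold threshold added, Slc22a7 and Slc22a18 were called lower, against 5.6% of all genes listed in PT, and Slc22a8 and Slc22a29 were called higher, against 57.2%. Slc22a2 and Slc22a6 fell short of the fold threshold, at log2 fold changes of -0.56 and -0.57 in the authors' deposited table. In the authors' deposited table the adjusted p was 6.36e-126 for Slc22a2, 1.45e-141 for Slc22a6 and 1.37e-233 for Slc22a29, and it was listed as 0 for Slc22a7, Slc22a8 and Slc22a18. The median log2 ratio of the 6 members, computed after adding a pseudocount of 1 to each mean, was -0.39, beside 0.23 over all genes listed in PT.

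**Figure D1:**
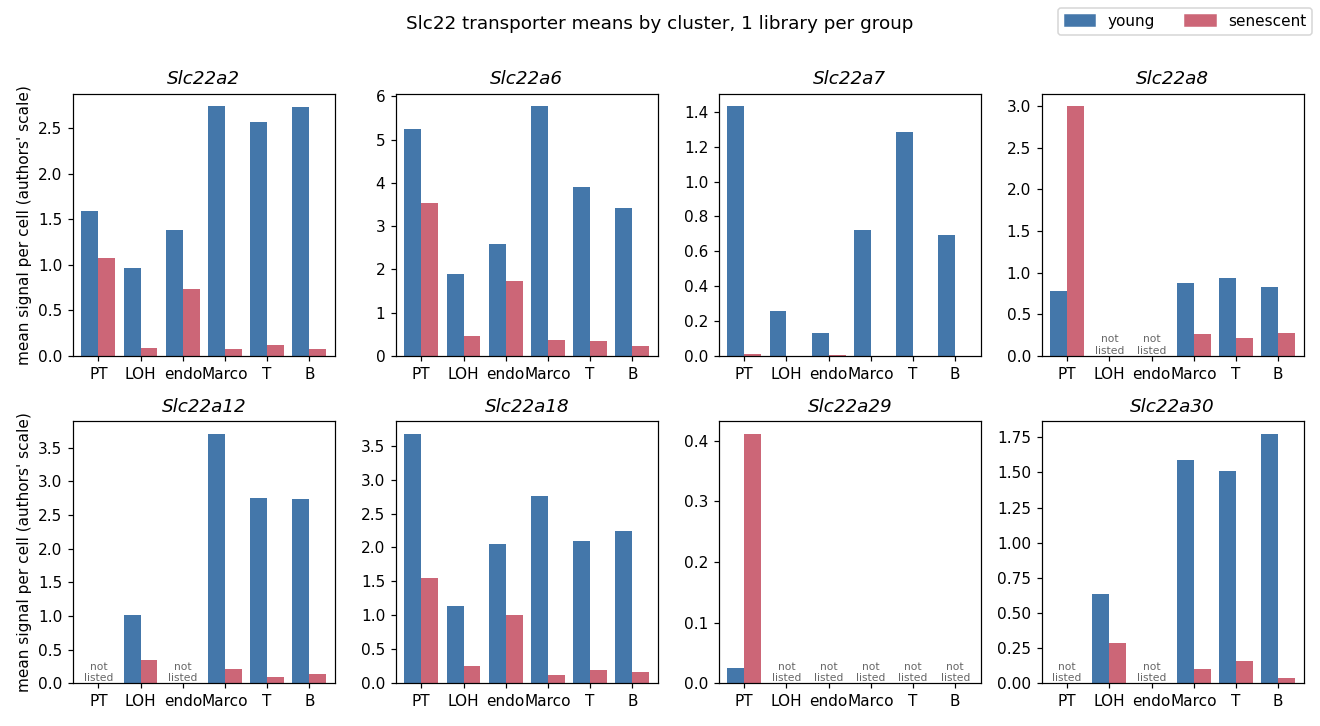
Mean signal per cell, on the authors' scale, of each Slc22 member in 6 clusters, with the young library in blue and the senescent library in red; each bar is 1 library and each panel has its own axis from 0. Slc22a8 in PT (0.780 and 2.999) and Slc22a29 in PT (0.0247 and 0.412) are the entries with the higher bar in the senescent library.

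Markers of other cells also differed between the libraries within PT. The thick ascending limb had 3 of its 5 markers listed, all lower, with summed means of 4.75 and 0.625. The collecting duct marker Atp6v1g3 stood at 0.510 and 0.00342. Neutrophil markers S100a8 and S100a9 summed to 0.629 and 2.05, and the 3 listed tubular injury markers, of 8, to 2.65 and 64.2. Of 17 listed proximal tubule markers, 9 were lower and 8 higher, among them Kap, an androgen-induced gene, at 719 and 21.4. Their part in the Slc22 values in PT was not tested.

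In LOH, 6 members were listed, all with the lower mean in the senescent library, as were 52.2% of all genes listed there. Slc22a2 had means of 0.969 and 0.0883, an 11.0-fold difference, and Slc22a6 had means of 1.90 and 0.458, a 4.15-fold difference. Slc22a18 stood at 1.13 and 0.251. Slc22a7 stood at 0.256 and 0.00285, and the latter is the smallest senescent mean above 0 listed in LOH. These 4 members were called lower, against 6.87% of all genes listed in LOH. Slc22a12, at 1.02 and 0.354, and Slc22a30, at 0.637 and 0.288, had an adjusted p of 1 in the authors' deposited table. The median log2 ratio of the members in LOH was -0.67, beside -0.11 for all listed genes.

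In endo, the 4 listed members had lower senescent means, as did 51.8% of all genes listed there. Slc22a6 had means of 2.60 and 1.72, Slc22a2 had means of 1.39 and 0.736, and Slc22a18 had means of 2.05 and 1.01. Slc22a7 had means of 0.129 and 0.00694. None of the 4 passed in the authors' deposited table, with an adjusted p of 1 for each, while the unadjusted p was under 0.05 for all 4. Of all genes listed in endo, 0.584% were called lower. The median log2 ratio was -0.43 for the members and -0.11 for all listed genes.

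In the 3 lymphoid and myeloid clusters Marco, T and B, the same 7 members were listed, and all 7 had the lower mean in the senescent library in each. Slc22a6 had means of 5.77 and 0.364 in Marco, 3.90 and 0.351 in T, and 3.41 and 0.238 in B. The ratio for Slc22a6 was thus 15.8-fold, 11.1-fold and 14.4-fold, against 1.49-fold in PT. Slc22a2 had means of 2.74 and 0.0752 in Marco, 2.56 and 0.122 in T, and 2.73 and 0.0824 in B. The young means of Slc22a2 in these immune clusters were all above its young mean of 1.59 in PT.

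Slc22a7 was listed at 0 in the senescent library in all 3 of these clusters, with young means of 0.723 in Marco, 1.28 in T and 0.691 in B. No ratio is given for it there. Slc22a8 had means of 0.877 and 0.265 in Marco, 0.933 and 0.214 in T, and 0.829 and 0.277 in B. The direction for Slc22a8 was therefore opposite to that in PT, and its ratio, between 2.996-fold and 4.36-fold, was the narrowest of the members with a ratio in each of the 3 clusters. The urate transporter gene Slc22a12 had means of 3.71 and 0.217 in Marco, 2.75 and 0.0962 in T, and 2.74 and 0.145 in B. Slc22a18 had means of 2.75 and 0.131 in Marco, 2.09 and 0.202 in T, and 2.25 and 0.161 in B. Slc22a30 had means of 1.59 and 0.101 in Marco, 1.51 and 0.160 in T, and 1.78 and 0.0383 in B.

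All 7 members were called lower in Marco, against 23.6% of all genes listed there, and all 7 in T, against 20.7%. In B, 6 of 7 were called lower, against 15.5%. The exception was Slc22a8, with an adjusted p of 1 in the authors' deposited table. A lower senescent mean at any adjusted p was found for 41.7% of all listed genes in Marco, 55.2% in T and 71.8% in B. The median log2 ratio of the members was -1.73 in Marco, -1.36 in T and -1.48 in B, beside 0.23, -0.11 and -0.27 for all listed genes. These medians come from the same 2 libraries and share their cells' tissue and digestion, so the clusters are not independent repeats.

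**Figure D2:**
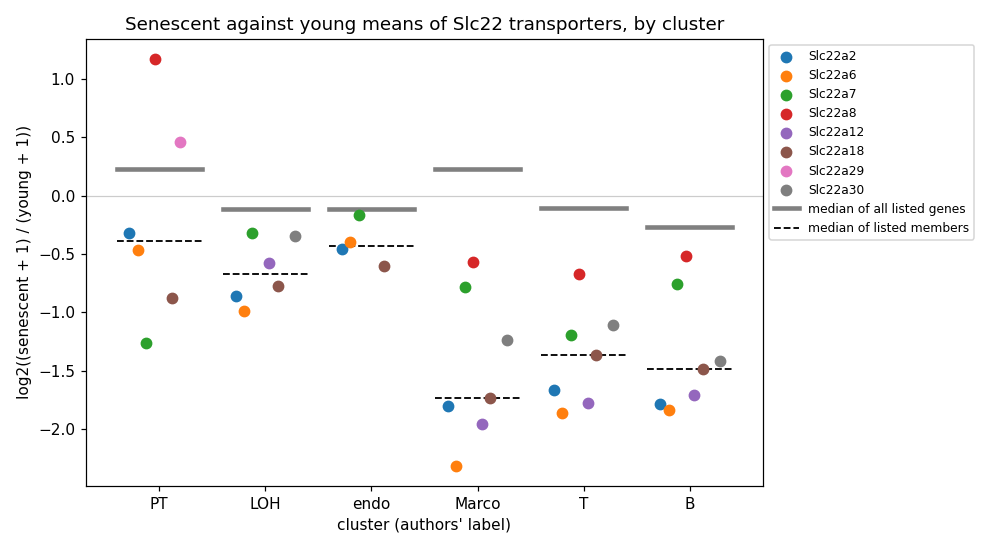
Log2 ratio of senescent to young means, each with 1 added, for every listed Slc22 member (points) in 6 clusters, with the median of the listed members (dashed) and of all listed genes (grey bar). Members lie below 0 everywhere except Slc22a8 and Slc22a29 in PT, and the medians are lowest in Marco at -1.73, B at -1.48 and T at -1.36.

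Markers of the proximal tubule moved in the same direction in these clusters. In Marco 19 of the 20 were listed, all lower, with summed means of 879 and 32.0. In T all 20 were listed and lower, with sums of 714 and 29.2, and in B 19 were listed and lower, with sums of 729 and 31.2. In LOH 17 of 18 listed markers were lower, with sums of 305 and 25.7, and in endo 9 of 10, with sums of 437 and 153. Most of every young sum came from Kap, which was also lower in PT. Its means were 294 and 4.31 in endo and 642 and 2.24 in Marco. The higher marker in endo, Gpx3, stood at 52.3 and 102, and without Kap the endo sum would not be lower. The sums therefore do not give the size of the difference in the other markers. None of the listed proximal tubule markers was at 0 in either library. The markers of each immune cell type went the other way in its own cluster, with summed means of 30.3 and 179 for macrophage markers in Marco, 17.3 and 64.8 for T cell markers in T, and 36.5 and 91.4 for B cell markers in B. The part of tubule RNA in the Slc22 values of these clusters was not tested.

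The level of a member in another cluster was then set against its own level in PT, within the same library. In the young library, Slc22a6 in Marco stood at 110% of its PT mean, Slc22a8 at 112%, Slc22a2 at 172%, Slc22a18 at 74.9% and Slc22a7 at 50.5%. In the senescent library, the same genes in Marco stood at 10.3%, 8.83%, 6.99%, 8.41% and 0% of their PT means. With Slc22a7 left out of both libraries, the young percentages ran from 74.9% to 172% and the senescent ones from 6.99% to 10.3%. In T the 5 members had medians of 89.7% in the young library and 9.94% in the senescent one, and in B 64.9% and 7.66%.

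The proximal tubule markers gave similar percentages. Their median was 96.9% of the PT mean in the young library and 8.84% in the senescent one in Marco, 83.0% and 7.59% in T, and 75.2% and 8.02% in B. In LOH the 4 members listed in both clusters had medians of 33.5% and 14.6%, and the markers 56.6% and 14.0%. In endo the members had medians of 52.6% and 60.0%, and the markers 66.0% and 54.3%, so there the medians of the libraries lay closer together. Slc22a7, kept in these medians, went from 17.8% to 22.5% in LOH and from 9.04% to 54.9% in endo. Its senescent means of 0.0126 in PT, 0.00285 in LOH and 0.00694 in endo are low enough that these shares are uncertain. For Slc22a8, the opposite directions in PT and in the immune clusters correspond to a 3.85-fold higher PT mean together with a share of the PT mean that went from between 106% and 120% in the young library to between 7.14% and 9.22% in the senescent library.

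**Figure D3:**
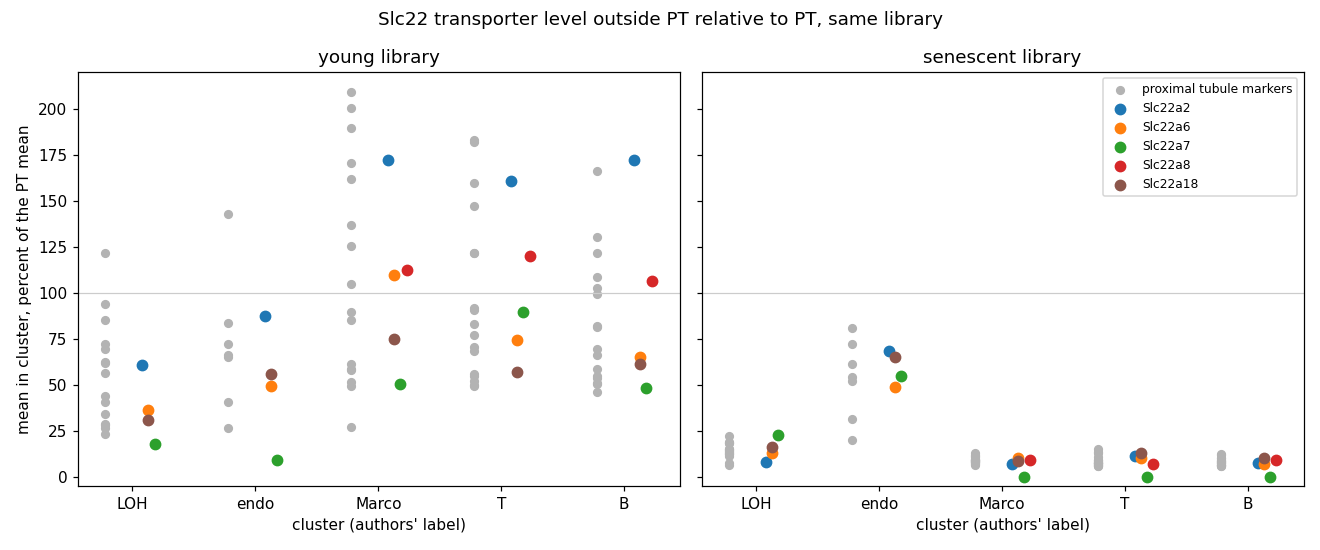
Mean of each Slc22 member in 5 clusters as a percentage of its PT mean in the same library, for the young library (left) and the senescent library (right), with proximal tubule markers in grey. In Marco, T and B the members lie between 48.3% and 172% in the young library and between 0% and 13.0% in the senescent library. Slc22a7, at 0% in the senescent library, lies below the markers there, and the other values lie within or near the range of the markers.

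The order of the clusters by level differed between the libraries. For Slc22a6 the young order from high to low was Marco, PT, T, B, endo and LOH, and the senescent order was PT, endo, LOH, Marco, T and B. For Slc22a18 the young order was PT, Marco, B, T, endo and LOH, and the senescent order PT, endo, LOH, T, B and Marco. Slc22a2 was highest in Marco and B in the young library, at 2.74 and 2.73, and in PT and endo in the senescent library, at 1.08 and 0.736. Slc22a8, over the 4 clusters that list it, was highest in T in the young and in PT in the senescent library. Neighbours in these orders cannot be separated, since no spread between libraries exists.

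In the mouse genome build mm10, for which the RefSeq annotation of GRCm38.p6 was used, all 8 members are annotated as protein coding. Slc22a2 lies on chromosome 17 from 12584189 to 12628489 and Slc22a7 on the same chromosome from 46432185 to 46438477. Slc22a18 lies on chromosome 7 from 143473726 to 143499334. The other 5 lie on chromosome 19, Slc22a12 from 6535854 to 6543070, Slc22a29 from 8160168 to 8253375, Slc22a30 from 8335371 to 8405111, Slc22a8 from 8591254 to 8611835 and Slc22a6 from 8617996 to 8628299. Each value is for the whole gene.

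Slc22a8 and Slc22a6 are direct neighbours, with 6160 bases between them, and they had opposite directions in PT. They close a run of 8 Slc22 genes over 955225 bases on chromosome 19, in which these are the 8 annotated protein-coding genes. In that run, the PT means were lower in the senescent library for Slc22a19, Slc22a28 and Slc22a6 and higher for Slc22a29 and Slc22a8, and Slc22a26, Slc22a27 and Slc22a30 were not listed in PT. Position in the run thus did not go with 1 direction. Members of such a run are related in sequence, so the split of reads among them is uncertain. Gm36394, a long noncoding RNA, overlaps both Slc22a6 and Slc22a8 in the annotation, Gm36541 overlaps Slc22a7 and Gm41804 overlaps Slc22a29. Whether the counting used strand is not given in the sources used here, so reads of these pairs may not be told apart.

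Of the 17 other Slc22 genes in the fixed list, 6 were listed in PT, 3 lower and 3 higher. Slc22a5, which encodes the carnitine transporter OCTN2, had means of 0.292 and 0.853 in PT, 2.92-fold higher. Slc22a19, which encodes the organic anion transporter OAT5, had means of 0.301 and 0.0760, 3.96-fold lower, and Slc22a23, an orphan member, had means of 0.114 and 0.273. Outside PT every listed entry of these 17 genes was lower in the senescent library, with 3 genes listed in LOH, 5 in Marco, 7 in T and 6 in B. Of all listed genes, 52.2% were lower in LOH, 41.7% in Marco, 55.2% in T and 71.8% in B. By the authors' adjusted p and the fold threshold, 2 of these family genes were called lower in LOH, 5 in Marco, 5 in T and 2 in B. Over all listed genes the called shares were 6.87%, 23.6%, 20.7% and 15.5% in the same order. Slc22a28 had means of 1.09 and 0.00938 in Marco. Slc22a19 and Slc22a22 were listed at 0 in the senescent library in B. The median log2 ratio of the other family genes in PT was -0.04, and it changed sign with a pseudocount of 0.1.

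Carriers that work with the Slc22 members were read in PT against the 78.3% of all genes listed there that passed as higher. In the list of efflux pumps and other organic solute transporters, 9 of 22 genes were listed in PT, 7 higher and 2 lower, a split like that of all genes listed in PT, and in the authors' deposited table all 9 passed. Abcb1b, a drug efflux pump gene, had means of 0.0115 and 0.436, and Abcc4, which encodes the organic anion efflux pump MRP4, had means of 0.0326 and 0.355. Slco1a1, which encodes an organic anion transporting polypeptide, was the gene with the largest fold change of this list, at 1.07 and 0.0258, 41.5-fold lower. Its direction was that of Slc22a6 and Slc22a7 and opposite to that of the pumps. The median of the list was 0.51, beside 0.23 for all genes listed in PT.

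The exchange of organic anions through OAT1 and OAT3 depends on dicarboxylate that is brought in with sodium. Of 11 genes fixed for this step, 10 were listed in PT, 6 higher and 4 lower, beside 78.3% higher and 21.6% lower among all genes listed there. In the authors' deposited table all 10 passed, as did nearly every gene listed in PT, and their median log2 ratio was 0.34. Slc13a1, a sodium-sulfate cotransporter gene of the same family as the dicarboxylate carriers, had means of 1.48 and 16.3, and Idh1, which encodes a dicarboxylate-producing dehydrogenase, had means of 2.18 and 5.17. Fxyd2, which encodes a regulatory subunit of the sodium pump, had means of 142 and 56.2. Slc13a3, the basolateral dicarboxylate cotransporter gene, is outside the naming rule in PT and was chosen after its values of 1.14 and 2.33 were seen.

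Among transcription factors, receptors and scaffold proteins linked to these transporters, 11 of 18 genes were listed in PT, 10 higher and 1 lower, all of which passed in the authors' deposited table, beside 78.3% of all genes listed in PT that passed as higher. Prlr, the prolactin receptor gene, had means of 0.0252 and 2.27, and Hnf4g, a nuclear receptor gene, had means of 0.0528 and 0.715. The 1 lower gene was Slc9a3r1, a scaffold gene, at 2.62 and 1.91, which was named after its values were seen. The median of this list was 0.46, beside 0.23 for all genes listed in PT.

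**Figure D4:**
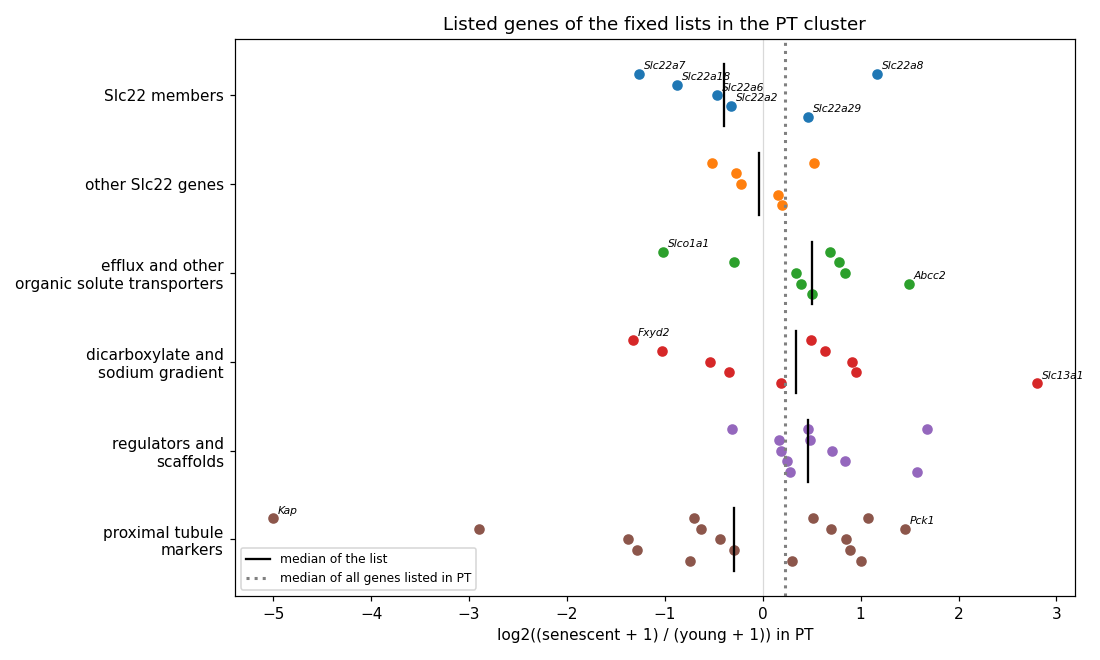
Log2 ratio of senescent to young means in PT, each with 1 added, for the listed genes of 6 fixed lists, each point 1 gene, with the median of each list (black line) and of all genes listed in PT (dotted line, 0.23). The Slc22 members spread from Slc22a7 at -1.26 to Slc22a8 at 1.17, and their median of -0.39 is the lowest of the 6 lists.

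Genes with a profile over clusters and libraries closest to that of each member were found by the mean absolute difference of log2(mean + 1) values, after subtraction of each gene's own mean. For Slc22a8 they were Fgf1, Klf9 and Nox4, with differences of 0.07, 0.08 and 0.08 over 8 values from 4 clusters. Their PT means were 0.766 and 3.14 for Fgf1, 0.813 and 3.06 for Klf9, and 0.614 and 3.07 for Nox4. For Slc22a6 they were Eci3, Dnajc12 and Cmbl, with differences of 0.18, 0.18 and 0.21 over 12 values from 6 clusters. Their PT means were 5.99 and 1.83 for Eci3, 5.67 and 2.16 for Dnajc12, and 5.07 and 1.55 for Cmbl. Slc22a6 itself had PT means of 5.26 and 3.53. For Slc22a7 they were Gm4208, Gm48281 and Slc5a10, at 0.13, 0.19 and 0.20, and for Slc22a2 they were Ugt2b37, Ces1f and Mpv17l, at 0.12, 0.19 and 0.20. For Slc22a18 the closest genes were Grhpr, Cryzl2 and Fitm1, at 0.11, 0.13 and 0.16. In PT these had means of 4.45 and 1.68, 4.91 and 1.76, and 2.79 and 1.04, beside 3.68 and 1.55 for Slc22a18. For Slc22a12 the closest genes were Slco1a1, AI314278 and Ces1f, each at 0.09 over 8 values. For Slc22a30 they were Hoga1, Mettl7b and Gss, at 0.07, 0.07 and 0.08. In PT, Gm4208 had means of 0.930 and 0.0875, Gm48281 0.645 and 0.00239, and Slc5a10 1.06 and 0.316, beside 1.43 and 0.0126 for Slc22a7. A close profile did not mean a like ratio in PT, as the means given for Slc22a6 and Slc22a7 show. The search covered only genes listed in the same clusters, between 173 and 1323 genes, and the values share their 2 libraries.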

How the data were processed

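Droplet single-cell RNA sequencing of kidney was deposited as 1 table for 2 libraries, young and senescent. Per the submitters' processing notes, Cell Ranger 2.1.1 and the build mm10 were used. The filters on cells, doublet and free RNA treatment, clustering and test are not given in the sources used here. Values in the authors' deposited table are a mean signal per gene, cluster and library on an unstated scale, the authors' log2 fold change, and the authors' p-value and adjusted p-value. For the 37 member entries the deposited log2 fold change equals the log2 ratio of the 2 means, each with 0.0001 added. The adjusted p-values of the authors, headed as a false discovery rate, are a median of 32574 times the p-value. Without a known depth, counting intervals could not be given.

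Members and lists were chosen with earlier results of these data known. Computed here were ratios of means, counts of called genes (adjusted p at most 0.05, absolute log2 fold change at least 1), medians of log2 ratios with a pseudocount of 1, and levels as a percentage of PT. Besides the 8 members, the rule named from each list up to 3 genes per cluster with the largest fold change among those past the adjusted p with 0.1 or more as the higher mean, and 3 genes of closest profile; 2 genes that it names are not reported here. The fold threshold alone was tried on simulated means, in which every gene passed the adjusted p. The changes planted there were well beyond the threshold and the young means were raised. That trial therefore could not check the authors' adjusted p or calls that rest on low means. Symbols matched RefSeq for all 8 members. Python 3.11.15, numpy 2.4.6, pandas 2.3.3 and matplotlib 3.10.9 were used. Alternatives were other thresholds, a pseudocount of 0.1, a filter on the mean and, chosen after seeing the data, rescaled means.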

Additional observations from a re-analysis of the deposited data

Results flagged for a closer look

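Slc22a8, which encodes OAT3, was higher in the senescent library in PT, with a log2 ratio of 1.82 after adding 0.1 to each mean, and lower in Marco, at -1.42, and in T, at -1.72. In the authors' deposited table it passed the threshold of the adjusted p in each of these clusters. Slc22a5, the carnitine transporter gene, was higher in PT at 1.28 and lower in Marco at -1.67. Slc22a13, another family gene, was higher in PT at 0.44 and lower in T at -2.37. With 1 library per group, none of these differences between clusters was tested.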

How the results depend on the processing

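Rescaling the means, chosen after seeing the data, could not turn a direction, since its shifts were smaller than the smallest log2 fold change listed, 0.36. Dividing by the sum of all listed means shifted every log2 ratio by between 0.03 in PT and 0.15 in endo, and leaving Kap out of that sum shifted those in PT by -0.12. No paired analysis was possible because each group had 1 library, and no library could be left out. Depth is unknown and limits ratios that rest on low senescent means, such as those of Slc22a7. A value was taken as moved when it changed by over 1.5 times, since there is no spread between replicates. In PT, the count of members called lower was 2, and it was 1 with a log2 fold change threshold of 2 and 4 with no fold threshold. The count called higher in PT was 2, and it was 1 with that threshold of 2. The counts in the other 5 clusters stayed within 1.5 times, as did all counts with an adjusted p threshold of 0.01 and with a mean of at least 0.1. The median log2 ratio of the members with a pseudocount of 0.1 was -1.80 in LOH, -3.59 in Marco, -3.15 in T and -3.38 in B. With the log2 fold changes in the authors' deposited table it was -2.11, -4.09, -3.47 and -4.24. A smaller pseudocount widens the ratio of low means by construction. For the other family genes, a pseudocount of 0.1 gave 0.00022 in PT, where the sign turned, -1.65 in LOH, -2.23 in Marco, -2.37 in T and -1.89 in B. For efflux and other organic solute transporters it gave 1.16 in PT, -1.03 in LOH, 2.07 in endo, -2.52 in Marco, -2.05 in T and -2.45 in B. For the dicarboxylate and sodium genes it gave -2.38 in T and -1.42 in B. For regulators and scaffolds it gave -1.23 in LOH, 1.93 in endo, -1.08 in Marco, -1.40 in T and -2.38 in B.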

Other observations

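Among genes that work with the Slc22 transporters, all 11 listed efflux and other organic solute transporter genes were lower in the senescent library in each of Marco, T and B. Of all listed genes, 41.7% were lower in Marco, 55.2% in T and 71.8% in B. By the authors' adjusted p and the fold threshold, 11 of these transporter genes were called lower in Marco, 9 in T and 6 in B. Over all listed genes the called shares were 23.6%, 20.7% and 15.5% in the same order. Slco1a1 had means of 2.94 and 0.00336 in Marco and was listed at 0 in the senescent library in T and B. The phosphate transporter family gene Slc17a3 had means of 3.03 and 0.145 in Marco, 2.68 and 0.165 in T, and 2.13 and 0.211 in B. The scaffold gene Pdzk1 had means of 1.47 and 0.359 in LOH, 3.16 and 0.232 in Marco, 2.29 and 0.201 in T, and 3.15 and 0.284 in B.

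In endo, 4 of 5 listed efflux and other organic solute transporter genes had higher senescent means, and none of these 5 genes passed in the authors' deposited table. All 3 listed regulator genes also had higher means there, and none passed. Of all genes listed in endo, 51.8% had the lower senescent mean and 0.584% were called lower. Abcb1b and Abcc4, among the 4 higher transporter genes, had a young mean of 0 and senescent means of 0.320 and 0.426. The 1 transporter gene with a lower mean was Slco1a1, named after its values of 0.695 and 0.00619 were seen, and it shared the direction of the 4 Slc22 members listed in endo.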
